A study of Homo sapiens with 6 samples.

Results

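NRF2, encoded by NFE2L2, is the transcription factor that sets the antioxidant and detoxification programme of most cells, the intestinal epithelium included. KEAP1 binds NRF2 and feeds it to a ubiquitin ligase; when reactive molecules modify KEAP1, NRF2 builds up, pairs with a small MAF protein such as MAFG and binds antioxidant response elements in its target genes. Those targets make glutathione and thioredoxin, supply the NADPH that keeps both reduced, and oxidise, conjugate, store or export reactive compounds.

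The 32 genes described here were taken from a list of NRF2 regulators and targets with glutathione, thioredoxin and NADPH enzymes, out of 19775 genes named on the array. Each gene was represented by the brightest probe set annotated to that gene alone. A single-symbol probe set was found for 31 of the 32 genes; FTH1, the ferritin heavy chain gene, had none and was not analysed here. Of the 31, 29 reached a mean log2 value of at least 5 and were tested among 12317 genes, and the remaining pair, AKR1B10 and ABCC2, is given by values alone. The 29 tested genes had mean log2 values between 6.46 and 12.6, with a median of 9.18 against 7.62 over all tested genes.

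The cells were HCA-7, a human line established from a colorectal cancer, which forms colonies of different shape in collagen. A spiky clone (SC1) and a cystic clone (CC3) were each seeded in type-1 collagen in 12-well dishes and sampled on day 5, 10 and 15 for Affymetrix U133 Plus 2.0 arrays, so there were 6 arrays, 3 per clone and 2 per day. No drug, gene change or oxidant was part of any group. Each shape was 1 clone, so spiky against cystic cannot be told apart from clone against clone. The labels do not say whether the days were separate cultures, and no clone had more than 1 array on a day. The spread behind the p-values is thus how far the clones depart from parallel courses over the days. For the slope difference it is how far each clone departs from a straight line. Both are moderated across genes and may be partly technical.

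All values below are log2 expression values from RMA, and differences are log2 differences. Array medians lay between 5.18 and 5.34. The epithelial markers EPCAM, KRT18 and KRT19 were between 11.63 and 12.79 on every array, and CDH1 and KRT8 also reached a mean of 5. Of the intestinal markers VIL1 was between 6.49 and 8.10, while KRT20, CDH17, CDX1 and CDX2 were at or below 5.14. Of 11 fibroblast markers 2 reached a mean of 5, as did 5 of 10 leukocyte markers. Among the leukocyte markers the lysozyme gene LYZ lay between 7.83 and 10.69 and CSF1R between 4.82 and 6.67, while PTPRC stayed at or below 3.25. Between day 5 and day 15 the fibroblast marker COL1A1 (1.38, limma adjusted p = 0.00203) and the leukocyte marker LYZ (1.51, limma adjusted p = 0.000298) rose. The keratins KRT18 (-0.66) and KRT8 (-0.48, limma adjusted p = 0.0412) fell. The mean level of the whole marker list was at most 4.12 in spiky and 4.18 in cystic arrays for fibroblasts. For leukocytes it was between 4.38 and 4.71 in spiky and between 4.74 and 4.90 in cystic arrays. As a sign of RNA integrity, the 3' minus 5' signal of ACTB was 2.73, 2.74 and 3.10 in spiky and 2.83, 3.18 and 3.28 in cystic colonies at day 5, 10 and 15. That of GAPDH was 0.60, 0.63 and 0.49 in spiky and 0.65, 0.79 and 0.63 in cystic colonies, and unlike that of ACTB it was lower at day 15 than at day 5. The part of these markers and of RNA integrity in the changes over culture was not tested. In bulk RNA, fewer cells with a transcript and less transcript per cell cannot be told apart.

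To show the element through which NRF2 acts, the promoters of 5 of the 7 genes found to hold its core are printed below from RefSeq (GRCh38.p14). They were picked for the match, and GPX2 among them was not called at day 15 against day 5 (-0.15). Each is given as the 250 bases before the annotated start and the 10 from it on, on the gene's own strand. Capitals mark each match to TGACNNNGC, the core of the antioxidant response element, on either strand, so that a match on the opposite strand reads as its reverse complement.

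GSTP1, chr11:67583562-67583821, plus strand: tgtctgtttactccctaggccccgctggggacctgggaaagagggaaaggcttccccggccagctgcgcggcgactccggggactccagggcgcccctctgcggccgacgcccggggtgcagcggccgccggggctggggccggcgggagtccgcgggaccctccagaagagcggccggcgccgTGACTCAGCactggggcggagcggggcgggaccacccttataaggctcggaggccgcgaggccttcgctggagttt
ME1, chr6:83431042-83431301, minus strand: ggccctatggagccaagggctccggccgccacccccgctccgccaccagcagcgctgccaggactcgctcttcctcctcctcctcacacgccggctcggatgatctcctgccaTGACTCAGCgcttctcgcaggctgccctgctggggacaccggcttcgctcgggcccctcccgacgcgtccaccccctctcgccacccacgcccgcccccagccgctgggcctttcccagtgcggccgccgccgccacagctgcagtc
TXNRD1, chr12:104215529-104215788, plus strand: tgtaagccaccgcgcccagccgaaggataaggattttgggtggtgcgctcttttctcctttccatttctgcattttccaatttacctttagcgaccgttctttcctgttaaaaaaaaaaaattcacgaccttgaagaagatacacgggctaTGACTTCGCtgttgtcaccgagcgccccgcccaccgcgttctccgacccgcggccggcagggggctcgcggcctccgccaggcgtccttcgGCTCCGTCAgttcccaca
GCLM, chr1:93909421-93909680, minus strand: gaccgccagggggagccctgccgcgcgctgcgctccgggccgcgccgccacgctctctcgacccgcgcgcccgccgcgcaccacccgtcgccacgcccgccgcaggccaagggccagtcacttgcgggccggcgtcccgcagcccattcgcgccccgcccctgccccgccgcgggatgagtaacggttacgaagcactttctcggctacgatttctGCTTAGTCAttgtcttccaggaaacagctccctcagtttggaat
GPX2, chr14:64942736-64942995, minus strand: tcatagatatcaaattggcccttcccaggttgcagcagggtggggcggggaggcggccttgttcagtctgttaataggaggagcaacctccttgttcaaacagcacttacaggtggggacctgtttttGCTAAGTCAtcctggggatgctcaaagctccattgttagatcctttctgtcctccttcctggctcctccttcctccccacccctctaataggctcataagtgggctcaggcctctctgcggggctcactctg

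The match in GSTP1 begins 66 bases and the printed match in ME1 137 bases before the start, and both read TGACTCAGC in the motif's orientation. ME1 has another match, TGACGGTGC on the opposite strand, that begins 11 bases after the start and lies past the printed stretch. TXNRD1 holds matches that begin 99 and 8 bases before the start. In GCLM and GPX2 the core lies on the opposite strand, 34 and 122 bases before the start. A promoter window of 250 bases before to 50 after the start was found for 25 of the 32 genes; none was matched for GSR, SLC7A11, PRDX1, HMOX1, FTH1, AKR1B10 and ABCC3. The core TGACNNNGC was present on either strand in 7 of the 25 windows (28%), those of the printed genes, PGD and PIR, against 15.5% of 10003 windows of tested genes and 13.6% of 27305 windows in all. The stricter form TGACTCAGC, which is contained in the core motif, was in 3 of 25 (GSTP1, ME1 and PIR; 12%) and in 0.48% of the windows of tested genes. These are letter matches in a short window and say nothing about binding or about sites elsewhere. The genes were listed for their place in the NRF2 pathway, so these shares beside the background are a description and no test of the list. The 18 windows without the core include those of TRIM16, KEAP1, GCLC, MAFG, TXN, SRXN1 and NQO1. At day 15 against day 5, 5 of 7 tested genes with the core were called lower and 0 higher. Of 17 tested genes without it 10 were lower and 3 higher (background 21.9% lower and 10.4% higher). Whether the core goes with the decline was not tested.

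Over the culture most of these genes declined in both clones. At day 15 against day 5, limma called 18 of 29 genes lower (62.1%, against a background of 21.9% of all tested genes called lower) and 3 higher (10.3%, close to the background of 10.4%). Their median difference was -0.59, against -0.11 over all tested genes. The genes were chosen with earlier results of these data known. Their share beside the background is thus a description and no test of the set. The 29 genes were also brighter than the tested genes in general (median of 9.18 against 7.62), and no background of like brightness was drawn. The 3 higher genes were all aldo-keto reductases of the AKR1C cluster. In 20 of the 29 genes both day 15 arrays lay below both day 5 arrays, which was so for 37.9% of all tested genes, and in 4 both lay above (20.5% of all tested genes). Leaving out the spiky day 5 array left 9 genes lower and 0 higher, and leaving out the cystic day 5 array left 12 lower and 2 higher; without the spiky day 15 array 15 were lower and 0 higher, and without the cystic day 15 array 17 were lower and 5 higher. Each of these fits assumes that the lone array of a day varies like the others. No call changed its sign under any alternative processing. Calls were lost for HMOX1, SLC7A11 and UGT1A6 with no filter on dim genes, and for GCLC, TXNRD1, UGT1A6 and AKR1C2 with the mean of probe sets. For GCLC, TXNRD1 and AKR1C2 that mean takes in a probe set near background (means of 3.90, 2.31 and 3.06). Calls were also lost for SLC7A11 and UGT1A6 with cyclic loess, and for FTL, PRDX1, SLC7A11, TALDO1 and UGT1A6 without an intensity trend in the variances.

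**Figure D1:**
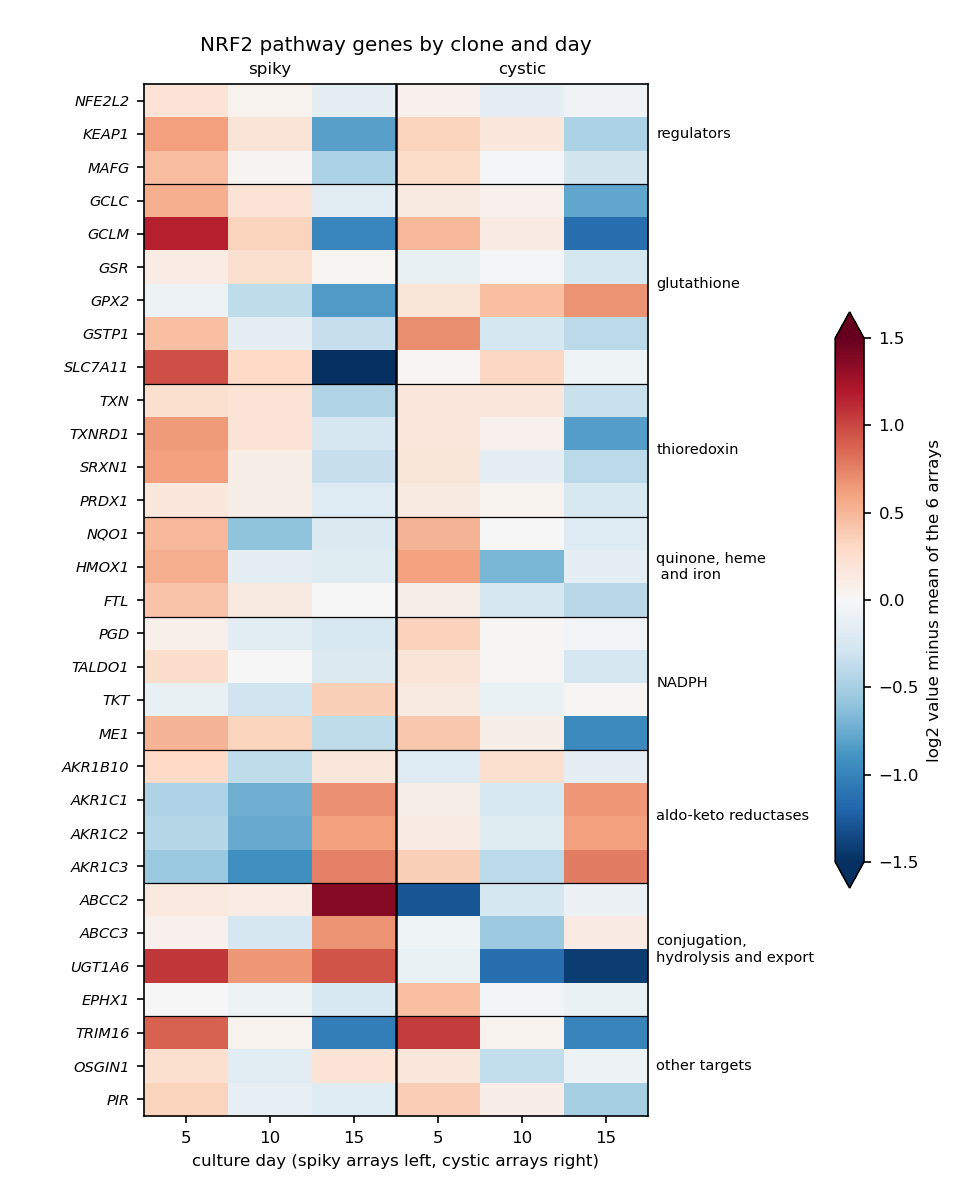
Log2 values of the 31 genes on the 6 arrays (colour, value minus the gene's mean over the 6 arrays), grouped by role from top to bottom, with spiky arrays left and cystic arrays right and culture day along the axis. Most rows turn from red at day 5 to blue at day 15 in both clones, the AKR1C rows turn the other way, and SLC7A11, GPX2 and UGT1A6 differ between the clones.

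Among the regulators, the repressor gene KEAP1 fell most clearly. In spiky colonies KEAP1 was at 10.58, 10.15 and 9.15 on day 5, 10 and 15, and in cystic colonies at 10.29, 10.12 and 9.49. Both day 15 arrays were below all 4 earlier arrays, and the fitted difference of day 15 against day 5 was -1.12 (SE 0.15, adjusted p = 0.00124), which is 2.17-fold lower. MAFG, the small MAF partner of NRF2, was at 7.54, 7.13 and 6.61 in spiky and at 7.36, 7.06 and 6.81 in cystic colonies. It was lower at day 15 by -0.74 (SE 0.20, adjusted p = 0.0190), and its other bright probe set gave -0.70.

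For NFE2L2 itself, 1 of 3 probe sets was lower at day 15 and the other two did not pass. The brightest one read 8.21, 8.06 and 7.87 in spiky and 8.07, 7.87 and 7.95 in cystic colonies, a fitted difference of -0.23 (SE 0.16, adjusted p = 0.325) at day 15 against day 5 that did not pass. A probe set that the platform's table ties to a RefSeq mRNA of the gene read 8.26, 7.90 and 7.19 in spiky and 8.41, 8.26 and 6.94 in cystic colonies. Put in place of the brightest one, it was lower at day 15 by -1.28 (SE 0.19, adjusted p = 0.00196), nearly all of it after day 10 (-1.02). The dimmest of the 3 read 5.62, 6.38 and 5.13 in spiky and 5.64, 5.39 and 5.66 in cystic colonies and did not pass (-0.24, adjusted p = 0.636). Whether the NFE2L2 transcript declined thus depended on the probe set.

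**Figure D2:**
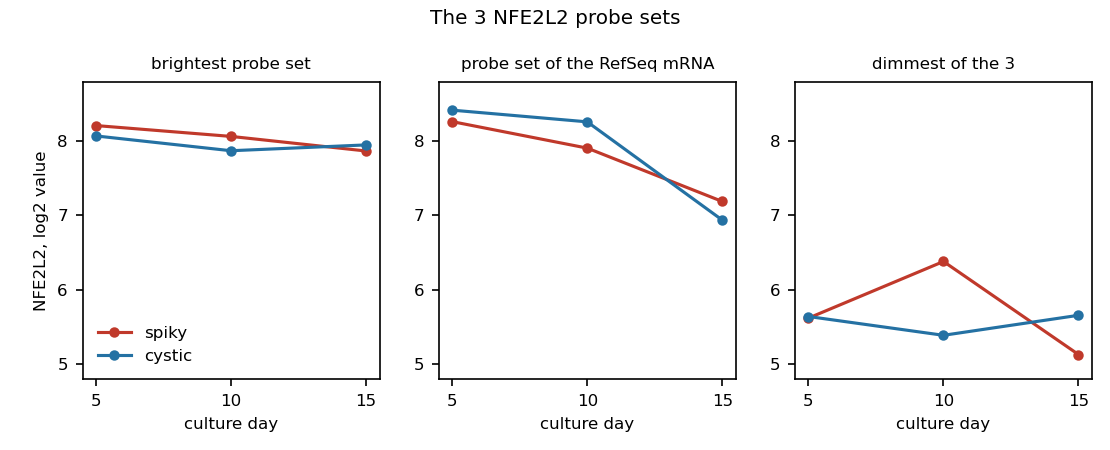
Log2 value of NFE2L2 (y axis, same scale in each panel) on culture day 5, 10 and 15 in the spiky and cystic clones, 1 array per point, for each of the 3 probe sets annotated to NFE2L2 alone. At day 15 the middle panel reads 7.19 in spiky and 6.94 in cystic colonies, below all 4 earlier arrays, while the left panel stays between 7.87 and 8.21.

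Glutathione synthesis and use came next. GCLM, the modifier subunit of glutamate-cysteine ligase, which starts glutathione synthesis, was at 8.97, 8.14 and 6.83 in spiky and at 8.31, 7.93 and 6.68 in cystic colonies. It stepped down at each sampling in both clones, and the difference of day 15 against day 5 was -1.89 (SE 0.19, adjusted p = 0.000541), 3.71-fold lower. Its other bright probe sets gave -1.75 and -1.33. GCLC, the catalytic subunit of the same enzyme, was at 8.48, 8.14 and 7.76 in spiky and at 8.07, 7.99 and 7.15 in cystic colonies. The GCLC fall was smaller, at -0.82 (SE 0.18, adjusted p = 0.00845), and a less bright probe set gave -0.38, which did not pass.

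GSTP1, a glutathione transferase that joins glutathione to electrophiles, was at 11.88, 11.28 and 11.08 in spiky and at 12.12, 11.16 and 11.02 in cystic colonies. The drop was largely in place by day 10, with fitted differences from day 5 of -0.78 at day 10 and -0.95 at day 15 (adjusted p = 0.000617 at day 15). GSR, which reduces oxidised glutathione with NADPH, held nearly level, at 11.03, 11.15 and 10.95 in spiky and at 10.80, 10.90 and 10.65 in cystic colonies. Its day 15 difference of -0.12 (SE 0.09, adjusted p = 0.339) did not pass, while a dimmer probe set gave -0.42 (adjusted p = 0.0219). SLC7A11 and GPX2, the other genes of this role, behaved differently in the clones and are described with the clone comparison.

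All 4 thioredoxin system genes passed as lower at day 15. TXNRD1, the reductase that recharges thioredoxin with NADPH, was at 11.70, 11.27 and 10.81 in spiky and at 11.23, 11.13 and 10.23 in cystic colonies (-0.95, SE 0.11, adjusted p = 0.000834). TXN, thioredoxin itself, was at 12.85, 12.81 and 12.16 in spiky and at 12.77, 12.78 and 12.28 in cystic colonies. Its fall of -0.59 came after day 10, where the early step was -0.01 and the late step -0.58. SRXN1, sulfiredoxin, which repairs overoxidised peroxiredoxins, was at 9.19, 8.66 and 8.22 in spiky and at 8.76, 8.44 and 8.18 in cystic colonies, and its difference was -0.78 (SE 0.15, adjusted p = 0.00584). PRDX1, the peroxiredoxin that thioredoxin recharges, was at 12.74, 12.67 and 12.39 in spiky and at 12.72, 12.64 and 12.35 in cystic colonies. The clones followed each other closely for PRDX1, whose fall of -0.36 was the smallest called decline (SE 0.06, adjusted p = 0.00234).

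The quinone, heme and iron genes passed too, with most of the change seen by day 10. NQO1, a quinone reductase, was at 10.80, 9.70 and 10.09 in spiky and at 10.81, 10.30 and 10.11 in cystic colonies. HMOX1, heme oxygenase, was at 7.26, 6.57 and 6.53 in spiky and at 7.33, 6.04 and 6.58 in cystic colonies. The day 15 differences were -0.71 for NQO1 (SE 0.15, adjusted p = 0.00737) and -0.74 for HMOX1 (SE 0.22, adjusted p = 0.0327), and at day 10 they were -0.81 and -0.99; the fitted late steps were 0.10 and 0.25 and did not pass. FTL, the ferritin light chain, was at 12.92, 12.63 and 12.51 in spiky and at 12.59, 12.25 and 12.09 in cystic colonies. It fell by 0.46 (SE 0.06, adjusted p = 0.00121); both FTL probe sets are of a type that can detect related sequences.

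Of the NADPH enzymes, ME1 and TALDO1 fell. ME1, cytosolic malic enzyme, was at 8.59, 8.41 and 7.70 in spiky and at 8.48, 8.17 and 7.13 in cystic colonies, a difference of -1.12 (SE 0.17, adjusted p = 0.00215) with -0.88 of it after day 10. TALDO1, transaldolase of the pentose phosphate pathway, was at 10.52, 10.24 and 10.03 in spiky and at 10.44, 10.26 and 10.00 in cystic colonies (-0.46, SE 0.10, adjusted p = 0.00838). PGD, which makes NADPH in the oxidative branch of that pathway, had a difference of -0.36 (adjusted p = 0.0695), and TKT, transketolase, one of 0.18 (adjusted p = 0.355); neither passed.

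The remaining targets included the largest decline of the set. TRIM16, a tripartite motif protein with a role in autophagy, was at 10.81, 9.98 and 8.89 in spiky and at 10.98, 9.98 and 8.94 in cystic colonies. The clones were within 0.18 of each other on each day, and the difference of day 15 against day 5 was -1.98 (SE 0.11, adjusted p = 6.3e-05), 3.96-fold lower and the 13th lowest of 12317 tested genes; GCLM was the 19th lowest. PIR, an iron-binding nuclear protein, was at 8.01, 7.55 and 7.48 in spiky and at 8.04, 7.77 and 7.17 in cystic colonies (-0.70, SE 0.19, adjusted p = 0.0213). OSGIN1, an oxidative stress-induced growth inhibitor (-0.14), and EPHX1, microsomal epoxide hydrolase (-0.39), did not pass. OSGIN1 lay between 6.29 and 6.70 in spiky and between 6.09 and 6.63 in cystic colonies, and EPHX1 between 7.26 and 7.49 in spiky and between 7.39 and 7.94 in cystic colonies.

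**Figure D3:**
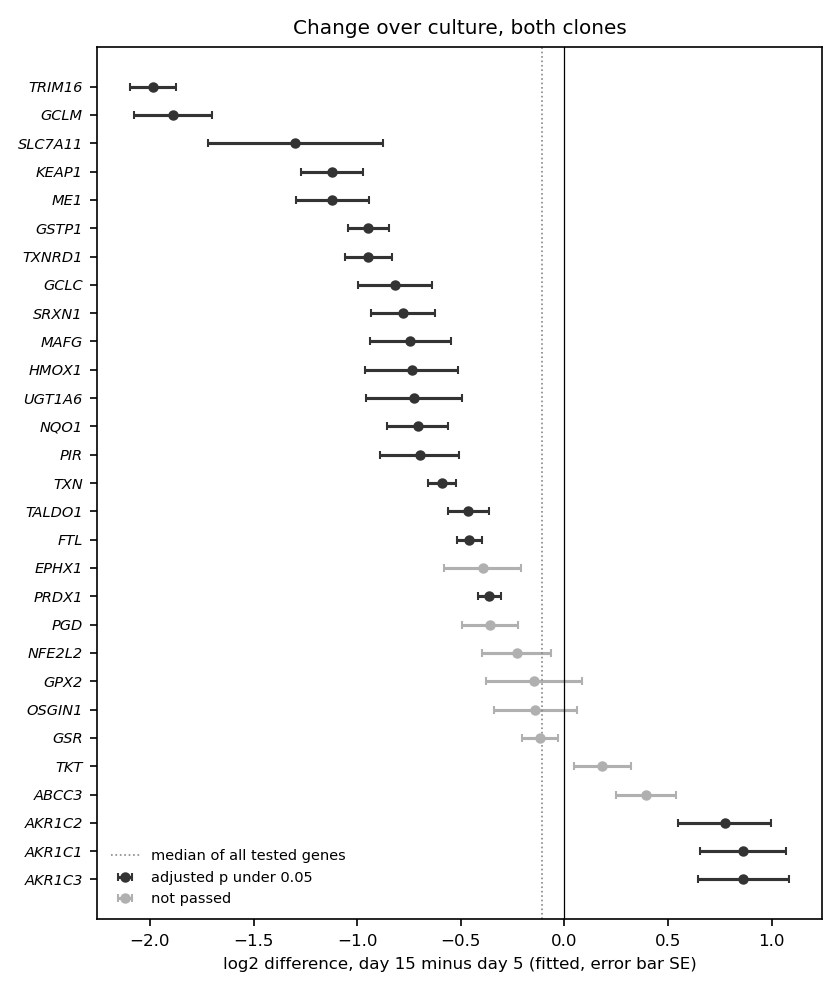
Fitted log2 difference of day 15 minus day 5 (x axis, error bars SE, 2 arrays per day) for the 29 tested genes, ordered from the lowest at the top; dark points passed at an adjusted p under 0.05, and the dotted line is the median of all tested genes (-0.11). The dark points on the left are the 18 genes that fell, from TRIM16 (-1.98) to PRDX1 (-0.36), and those on the right the 3 AKR1C genes.

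Against this decline, the AKR1C aldo-keto reductases, which reduce steroids, prostaglandins and reactive carbonyls with NADPH, rose late. AKR1C3 was at 7.35, 6.98 and 8.67 in spiky and at 8.27, 7.51 and 8.68 in cystic colonies. AKR1C1 was at 6.83, 6.57 and 7.98 in spiky and at 7.38, 7.07 and 7.95 in cystic colonies, and AKR1C2 at 6.12, 5.80 and 7.17 in spiky and at 6.67, 6.36 and 7.17 in cystic colonies. On the chosen probe sets all 3 were lowest at day 10 and highest at day 15 in each clone, and by day 15 the clones were level. The late step was 1.43 for AKR1C3 (SE 0.22, adjusted p = 0.00333), 1.15 for AKR1C1 (SE 0.21, adjusted p = 0.00610) and 1.09 for AKR1C2 (SE 0.22, adjusted p = 0.0100). Over the whole culture, day 15 against day 5, the differences were 0.86, 0.86 and 0.77, and these calls were lost without either the spiky day 5 or the spiky day 15 array. The AKR1C2 call was also lost with the mean of its probe sets, 1 of them near background (0.33, adjusted p = 0.28), and its other bright probe set gave 0.68 (adjusted p = 0.125).

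The AKR1C1 and AKR1C2 values may not be independent of each other. The chosen probe sets of both genes are of the type that can detect related sequences, and 1 further probe set was annotated to both genes together. No transcript or probe sequences were compared. The promoters of the genes are close copies too, which is a separate point and says nothing about what the probe sets detect. The AKR1C1 promoter is printed below in the same layout, with capitals marking the run of 245 bases that also stands without a difference in the AKR1C2 window (chr10, minus strand).

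AKR1C1, chr10:4963165-4963424, plus strand: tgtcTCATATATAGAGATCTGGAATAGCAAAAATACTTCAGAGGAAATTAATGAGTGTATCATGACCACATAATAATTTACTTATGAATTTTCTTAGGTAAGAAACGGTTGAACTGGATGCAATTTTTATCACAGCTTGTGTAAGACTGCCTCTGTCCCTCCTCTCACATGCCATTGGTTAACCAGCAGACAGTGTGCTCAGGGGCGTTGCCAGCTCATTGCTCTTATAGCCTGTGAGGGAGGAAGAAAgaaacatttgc

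Aligned over the whole windows, AKR1C1 and AKR1C2 were identical in 93.5% of columns, against 73.5% for AKR1C1 with AKR1C3. No AKR1C window held the antioxidant response core. AKR1C1 had 3 further probe sets with a mean of at least 5: the brightest of them gave 0.62 over day 15 against day 5 (adjusted p = 0.0518), another 1.31 (adjusted p = 0.00330) and the dimmest 0.10 (adjusted p = 0.780). The probe set at 1.31 read 6.05, 6.24 and 7.06 in spiky and 5.17, 5.76 and 6.78 in cystic colonies. Unlike the chosen one, it was lowest at day 5 and higher in spiky colonies on each day. AKR1B10, a related reductase of retinal and carbonyls, was between 4.59 and 5.27 on all arrays, near background.

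The export genes did not share the decline. ABCC3, a transporter of conjugates across the basolateral membrane, was at 9.25, 8.92 and 9.85 in spiky and at 9.11, 8.64 and 9.30 in cystic colonies. Its late step passed at 0.79 (SE 0.14, adjusted p = 0.00607), while day 15 against day 5, at 0.39, did not (adjusted p = 0.0636). The less bright ABCC3 probe sets gave late steps of 0.59, 0.46, 0.38 and 0.36. None of these passed, with a lowest limma adjusted p of 0.0875. ABCC2, the apical counterpart, was too dim on average to be tested. It read 5.03, 5.00 and 6.25 in spiky colonies and 3.60, 4.62 and 4.80 in cystic colonies, and was thus higher in the spiky clone on each day.

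The genes differed in how much of their decline was in place by day 10. In the early step, day 10 against day 5, limma called 0 of 29 genes (background 0.0162%, or 2 genes of 12317, with 0.00812% lower and 0.00812% higher), although 28 of 29 values were negative, against 65.8% of all tested genes. At an unadjusted p under 0.05 there were 13 of 29 genes and 1658 of 12317. TRIM16 (-0.92) and GSTP1 (-0.78) came closest, both with a limma adjusted p of 0.0503. In the late step, day 15 against day 10, 8 of 29 genes were lower (27.6%, background 14.0%) and 4 higher (13.8%, background 8.66%, or 22.6% in either direction): GCLC, GCLM, KEAP1, ME1, PRDX1, TRIM16, TXN and TXNRD1 fell, and AKR1C1, AKR1C2, AKR1C3 and ABCC3 rose. As a share of the fitted change at day 15, the value at day 10 ranged from 2.38% for TXN to 134% for HMOX1 among the 18 genes that fell, with a median of 47.1%. With the mean of probe sets the late calls of AKR1C2 (0.59), GCLC (-0.20) and TXNRD1 were lost. For each of these genes that mean takes in a probe set near background. With probe sets not ending in _x_at or _s_at the late calls of ABCC3 (0.36) and GCLC (-0.24) were lost. Leaving out the spiky day 10 array left 5 lower and 2 higher late calls, and leaving out the cystic one 4 and 4; without either day 15 array 6 genes were lower in the early step. Over all 12317 tested genes, at most 469 were called in the early step when each array was left out in turn. The early and late steps share the day 10 arrays, and the difference between them was not tested.

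**Figure D4:**
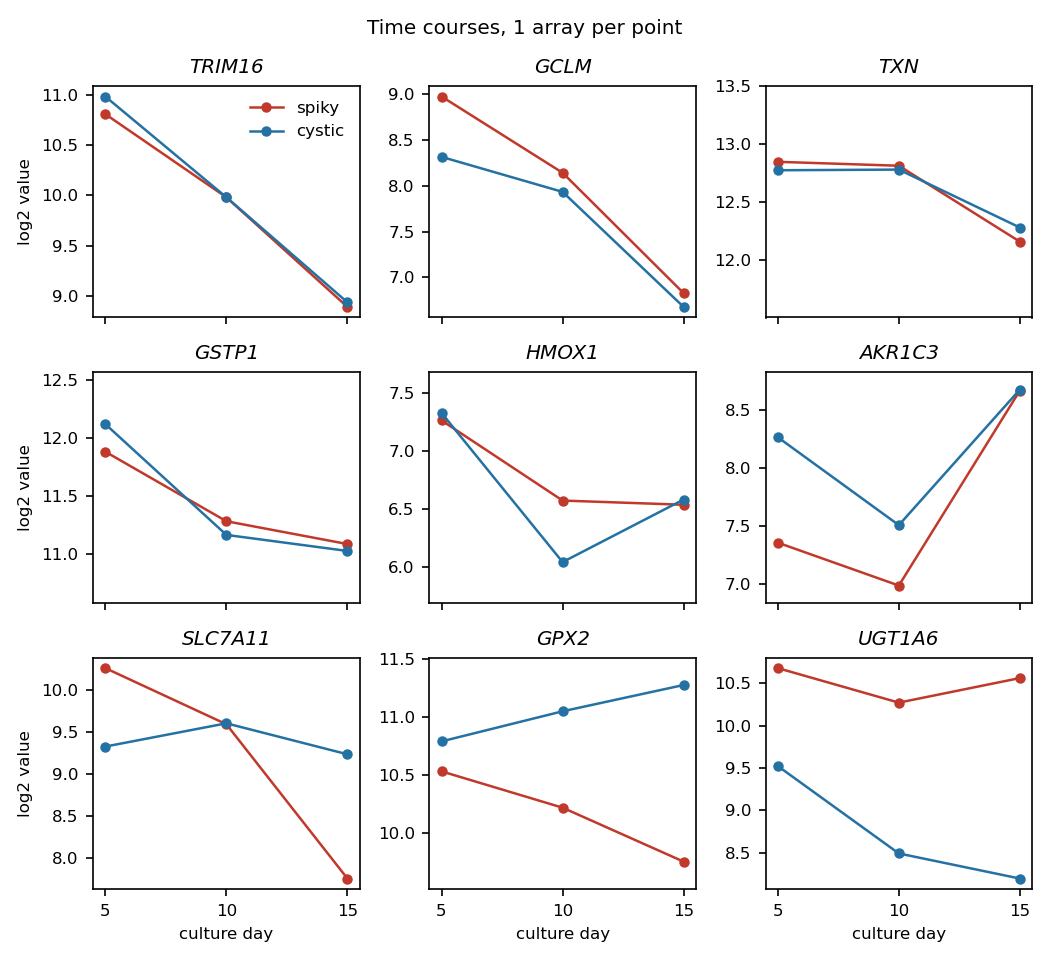
Log2 values (y axis, each panel with its own range of at least 2 units) of 9 genes on culture day 5, 10 and 15 (x axis) in the spiky and cystic clones, 1 array per point. TRIM16 and GCLM step down at each day, TXN only after day 10, GSTP1 and HMOX1 mainly by day 10, AKR1C3 rises after day 10, and in SLC7A11, GPX2 and UGT1A6 the clones part.

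The clones followed one another in the decline of most genes. Of the 29 genes 27 changed in the same direction between day 5 and day 15 in both clones, the exceptions being GPX2 and TKT, and 75.5% of all tested genes did so. The median change was -0.53 in the spiky and -0.50 in the cystic clone, against -0.12 and -0.11 over all tested genes. Across genes the changes of the clones had a Pearson correlation of 0.657 over the 29 genes and 0.705 over all 12317, a description over genes measured on the same arrays. The slope difference between the clones, which over these 3 days equals the difference of their day 15 minus day 5 changes, was called for 0 of 29 genes (background 0%) and 0 of 12317; 3 of 29 and 309 of 12317 had an unadjusted p under 0.05. These 3 were SLC7A11, GPX2 and UGT1A6.

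SLC7A11, the cystine importer that feeds glutathione synthesis, was at 10.26, 9.59 and 7.76 in spiky and at 9.33, 9.61 and 9.24 in cystic colonies. It dropped by 2.50 in the spiky clone, whose day 15 array was the lowest of the 6, and changed by -0.09 in the cystic clone. The difference in slope was -2.41 per 10 days (SE 0.51, adjusted p = 0.999). The other probe sets gave -2.50 and -1.98. Without the spiky day 5 array the difference was -3.58. In that fit the spiky slope rests on the day 10 and day 15 arrays alone and the residual on the cystic arrays alone. The joint difference of day 15 against day 5, which limma called at -1.30 (SE 0.42, adjusted p = 0.0437), averages these unlike courses.

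GPX2, the glutathione peroxidase of the gut epithelium, moved in opposite directions on its brightest probe set. It was at 10.53, 10.22 and 9.75 in spiky colonies and at 10.79, 11.05 and 11.28 in cystic colonies, so each step was down in the spiky clone and up in the cystic clone. The gap between spiky and cystic was -0.26, -0.83 and -1.53 on day 5, 10 and 15. Its slope difference was -1.27 (SE 0.26, adjusted p = 0.999), and a much dimmer probe set gave -0.05. Between day 5 and day 15 that dimmer probe set rose in both clones, by 0.42 in spiky and 0.47 in cystic colonies. TKT, whose change also differed in sign, was at 10.82, 10.64 and 11.30 in spiky and at 11.07, 10.84 and 10.96 in cystic colonies.

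UGT1A6, which conjugates phenols and other small molecules to glucuronic acid, was at 10.68, 10.27 and 10.56 in spiky and at 9.52, 8.49 and 8.19 in cystic colonies. All 3 spiky arrays were above all 3 cystic arrays. It changed by -0.12 in the spiky and by -1.33 in the cystic clone, with a slope difference of 1.21 (SE 0.43, adjusted p = 0.999), and day 15 against day 5 over both clones was -0.72 (SE 0.23, adjusted p = 0.0409). That call was lost without the cystic day 5 (-0.26) or the cystic day 15 array (-0.27), and the adjusted p was 0.0801 with no filter, 0.0522 with the mean of probe sets, 0.0934 with cyclic loess and 0.12 without the intensity trend. The UGT1A genes share their last exons, and 5 more probe sets were annotated to 6 or 9 UGT1A genes at once. The one that was brightest on the spiky day 5 array read 11.38, 11.02 and 11.15 in spiky and 10.61, 9.63 and 8.38 in cystic colonies. All 5 were higher in spiky colonies, by 1.64 to 1.87 over the 3 days, and in each the cystic value dropped at every sampling. Because these probe sets carry several symbols they were outside the tested genes, and they cannot say which UGT1A gene was measured. The tested probe set, which ends in _s_at, was the only probe set annotated to UGT1A6 alone. Whether it also detects other UGT1A transcripts was not tested.

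**Figure D5:**
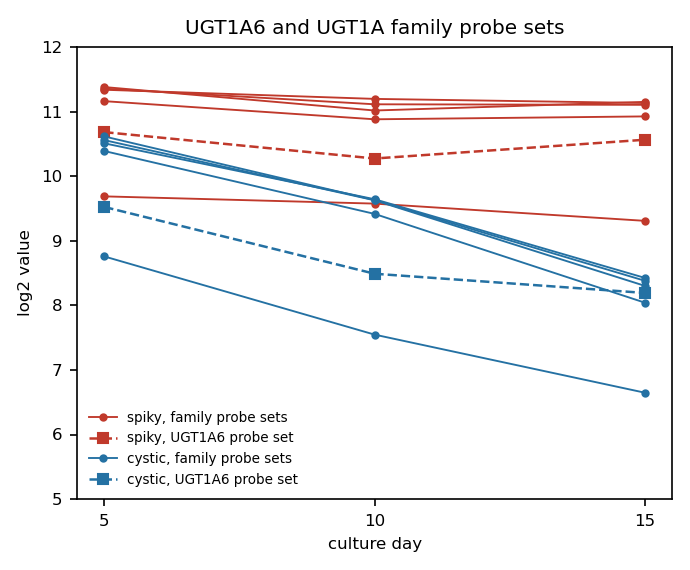
Log2 values (y axis) on culture day 5, 10 and 15 (x axis) of the UGT1A6 probe set (squares, dashed) and of the 5 probe sets annotated to several UGT1A genes (circles, solid) in the spiky and cystic clones, 1 array per point. Each cystic line falls, the UGT1A6 one to 8.19 at day 15, while the spiky UGT1A6 line stays between 10.27 and 10.68.

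Averaged over the days, few of the genes differed between the clones. Spiky against cystic, 4 of 29 were called higher (13.8%, background 3.65%) and 1 lower (3.45%, background 7.74%), with a median of 0.02 against -0.03 over all tested genes. Higher were UGT1A6 (1.77, SE 0.19, adjusted p = 0.000884), TXNRD1 (0.40, SE 0.09, adjusted p = 0.0241), FTL (0.38, SE 0.05, adjusted p = 0.00196) and GSR (0.26, SE 0.07, adjusted p = 0.0471). GPX2 was lower (-0.87, SE 0.19, adjusted p = 0.0184), while a much dimmer GPX2 probe set gave -0.20 (limma adjusted p = 0.528). FTL was above its cystic counterpart on each day by 0.33, 0.39 and 0.42, TXNRD1 by 0.47, 0.14 and 0.58 and GSR by 0.22, 0.25 and 0.30. UGT1A6 and GSR were the 2 genes whose spiky arrays all lay above the cystic ones (5.50% of all tested genes), and GPX2 the 1 whose spiky arrays all lay below (10.1% of all tested genes). The sign was the same on all 3 days in 18 of 29 genes (62.1%, against 45% of all tested genes), 11 higher and 7 lower in spiky colonies. The lysozyme gene LYZ (-1.34) and the villin gene VIL1 (-0.68, adjusted p = 0.0411) were lower in spiky colonies as well, and their part in these differences was not tested. Leaving out either day 5 array left 2 higher and 1 lower call, and without the spiky or the cystic day 15 array there were 2 or 3 lower calls. Without culture day in the model 0 of the 5 genes passed, and without an intensity trend in the variances only UGT1A6 did. TXNRD1 did not pass with the mean of its probe sets (0.16, adjusted p = 0.502), where the other probe set is near background (mean 2.31). GSR did not pass with no filter (adjusted p = 0.0751) or with probe sets not ending in _x_at or _s_at (limma adjusted p = 0.0505). Its call was also lost without either day 5 array and without either day 10 array. That of TXNRD1 was lost without either day 5 array. The regulators KEAP1, MAFG and NFE2L2 had differences of -0.01, 0.02 and 0.08, and none of them passed.

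Related genes outside the 32 were counted in 5 lists at day 15 against day 5, beside the background of 21.9% of all tested genes lower and 10.4% higher. Of 29 tested glutathione enzymes 11 fell and 0 rose, with a median of -0.27: GLRX2, a mitochondrial glutaredoxin, was at -1.45, the transporter ABCC4 at -0.96 and SLC3A2, the heavy chain that pairs with SLC7A11, at -1.05. Of 16 thioredoxin and antioxidant enzymes 5 fell, led by PRDX2 (-0.60), PRDX6 (-0.53) and the superoxide dismutase SOD1 (-0.37), and 3 rose: TXNIP, which binds and inhibits thioredoxin, by 2.44, the sestrin SESN3 by 2.70 and the methionine sulfoxide reductase MSRB2 by 0.44. Among 11 NADPH supply genes 4 fell, with MTHFD2 at -0.88, MTHFD1 at -1.12 and ME2 at -0.67, and the mitochondrial isocitrate dehydrogenase IDH2 rose by 0.63. Of 11 further regulators SQSTM1, the autophagy receptor that can bind KEAP1, was at -0.83 and DPP3 at -0.65, and BTRC rose by 0.51. Among 14 other reported NRF2 targets 4 fell and 0 rose, including UGDH, which makes the sugar donor for glucuronidation, at -1.10, TXNDC9 at -0.80 and the carbonyl reductase CBR1 at -0.71. Lower calls outnumbered higher ones in each list, as they did over all tested genes (2695 against 1287), so nothing particular to the lists is read from these counts.

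Between the clones the same lists were mixed, beside a background of 3.65% higher and 7.74% lower over all tested genes. Of the 29 glutathione enzymes 4 were higher in spiky colonies, among them GSTM4 (0.88) and GSTM2 (0.81), which are close relatives that probe sets may not separate, and GPX4 (0.30), and 4 lower, among them GPX8 (-1.17), ESD (-0.78) and ABCC4 (-0.68). SOD1 (-0.47) and TXNIP (-0.61) were lower among 16 antioxidant enzymes and 0 were higher. Of the regulators BACH1, a repressor that competes with NRF2 for its elements, was lower in spiky colonies at -1.01 (SE 0.21, adjusted p = 0.0172). ME2 (0.33) was higher and PGLS (-0.33) lower among the NADPH genes, and 0 of 14 other NRF2 targets passed. ESD and ABCC4 lie on chromosome 13 and SOD1 and BACH1 on chromosome 21; none of the 32 genes lies on either.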

How the data were processed

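Total RNA from the cell-containing collagen layer was hybridised as biotin-labelled cRNA, per the labels' protocols, 1 array for each clone on each day. The authors deposited log2 expression per probe set, made by RMA per the submitters' processing notes, which name no version. Gene symbols came from the annotation of the array platform and were updated to RefSeq (GRCh38.p14). The test, for genes averaging 5 or more on the log2 scale, was limma 3.58.1 in R 4.3.3: all 6 arrays, day as a factor plus clone, variances with an intensity trend, 2-sided p-values, Benjamini-Hochberg adjustment over 12317 genes and a threshold of 0.05. The slope model used day as a number, clone and their interaction. The 24 genes that passed any comparison, and the 3 regulators, are given on every array; from other lists at most 3 risers and 3 fallers with the smallest p are named. Members and lists were chosen with earlier results of these data known. The fit was also run on simulated data with independent errors, which the arrays here need not have, so that run does not vouch for these p-values. Day served as the block: same-day arrays deviated together (correlations 0.608, 0.496 and 0.719 across genes). Alternatives covered the filter, probe set, scaling, variance prior, block and each array. Precision is limited by the number of arrays, which have no read depth.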

Additional observations from a re-analysis of the deposited data

How the results depend on the processing

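The 18 lower and 3 higher calls of day 15 against day 5 became 9 and 0 with the clone left out of the model, and 1457 instead of 3982 genes were called in all; leaving out each array in turn gave 9 to 18 lower, 0 to 5 higher and 761 to 4318 genes in all. For day 15 against day 10 the counts were 8 lower, 4 higher and 2786 in all, 2, 0 and 337 without the clone, 4 lower and 1444 in all without the intensity trend, and 2 higher with probe sets not ending in _x_at or _s_at; leaving out arrays gave 4 to 10, 2 to 5 and 1019 to 3577. For day 10 against day 5, where 0 genes of the set and 2 in all were called, 2 genes of the set were lower, with 19 and 14 in all, at a mean log2 of at least 6 and with probe sets not ending in _x_at or _s_at; 0 were called in all with no filter, with no intensity trend and without the clone, 1 with the mean of all probe sets, and leaving out arrays gave 0 to 6 lower and 0 to 469 in all. For spiky against cystic 4 higher, 1 lower and 1403 in all became 1, 0 and 691 without the intensity trend and 0, 0 and 72 with no replicate block for culture day; leaving out arrays gave 2 to 4 higher, 1 to 3 lower and 507 to 2157 in all. The slope difference, 0 in all, gave 0 to 1 lower and 0 to 33 in all. With the clone or day left out, their variation enters the residual; the cause of the other changes was not tested. Cyclic loess moved the split of all calls at day 15 against day 5 to 1679 higher and 2061 lower, against 1287 and 2695, and that of day 15 against day 10 to 1327 and 1354, against 1067 and 1719 (859 and 2318 with arrays centred on their medians). Centring also gave 643 higher and 803 lower genes for spiky against cystic, against 450 and 953. The difference between clones over day 5 and 15 alone equals the slope difference and has no test of its own. Signal near background limits AKR1B10 and ABCC2.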

Other observations

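In the late step alone, day 15 against day 10, related genes outside the 32 went both ways. Of 29 glutathione enzymes 6 fell and 3 rose: GLRX2 (-1.24), GLRX3 (-0.59) and ABCC4 (-0.75) had the smallest p among those lower, and the secreted peroxidase GPX3 (0.68) and the transferases GSTM4 (0.77) and GSTA4 (0.78) were higher. Of 16 antioxidant enzymes 4 fell, among them SOD1 (-0.32) and PRDX4 (-0.41), and 3 rose, with TXNIP at 2.67 and SESN3 at 2.65. Among 11 NADPH supply genes 3 fell, MTHFD2 (-0.81), MTHFD1 (-1.01) and ME2 (-0.51), and IDH2 rose (0.95). Of 14 other NRF2 targets 3 fell, UGDH (-0.91), TXNDC9 (-0.72) and HTATIP2 (-0.36), and biliverdin reductase B, BLVRB, rose (0.70). Among 11 regulators SQSTM1 fell (-0.47) and the small MAF gene MAFF rose (0.66). The background shares in this step are 14.0% lower and 8.66% higher.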
